A study of Mus musculus with 32 samples.

Results

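Early light was compared with early dark in hindlimb muscle of young mice, as 4 arrays from ZT0 and ZT3 against 4 arrays from ZT12 and ZT15, where ZT (zeitgeber time) counts the hours since the light came on. These 8 arrays, 2 at each time, were all arrays of 8-week mice at the 4 times, and were 8 of 32 arrays in all. The mice were C57BL/6, 8 weeks old and without treatment, and had lived for 2 weeks under 12 h of light and 12 h of dark per day with free access to food and water. ZT0 is the time of lights on and ZT12 that of lights off, so both windows open at a change of light and each time lies 12 h from its partner in the other window. Each array carried pooled RNA of 3 mice, so the 8 arrays stand for 24 mice and the spread between arrays is one between pools. The remaining arrays came from the other 4 times of young mice and from all 8 times of mice aged 80 weeks, kept in the same way. Values are log2 levels of whole transcripts on GeneChip Mouse Gene 2.0 ST arrays, and a difference always means early dark minus early light on that scale.

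Muscle fibres carry a circadian clock of their own. In this clock the proteins BMAL1 and CLOCK, or NPAS2 in place of CLOCK, activate the Per and Cry genes, whose proteins in turn repress their activators. A second arm consists of the repressors REV-ERBα and REV-ERBβ, encoded by Nr1d1 and Nr1d2, which act against ROR proteins on the Arntl gene that encodes BMAL1. Mice are nocturnal, so the early dark window is also the time at which they usually begin to move about and to feed, and signals such as insulin, glucocorticoids and body temperature change in the same hours. In muscle these signals act on the uptake of glucose, the handling of amino acids and the balance of protein synthesis and breakdown.

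The compared arrays had medians between 6.00 and 6.08, and markers of fast muscle fibres were at a mean level of 12.89 to 12.99 in every one of them. Liver transcripts were present in 2 of the compared arrays, both of early light and both of repeat 1: the mean of 16 measured hepatocyte genes was 8.40 at ZT0 and 8.62 at ZT3 there, against 6.08 to 7.04 in the other 6. These 2 arrays are part of a group of 6 among all 32 that exceeded the median hepatocyte mean by over 1 on the log2 scale. Adipocyte markers also moved with the comparison, with a list mean of 7.89 to 8.51 in the light arrays and 8.89 to 9.84 in the dark arrays and no overlap. None of the 7 measured adipocyte genes passed the test, and their median difference was 0.80, with Cidec, which coats lipid droplets, at 1.63, the hormone leptin (Lep) at 1.42 and Adipoq at 1.09. Counts of genes past the threshold among young arrays are therefore given below also without liver arrays. They are given with the mean of the adipocyte markers as a covariate as well. The counts for single pairs of opposite times are given over all arrays only.

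Of 23279 genes tested, 61 (0.262%) differed between the windows, 39 higher in early dark (0.168%) and 22 higher in early light (0.0945%), by limma with an adjusted p under 0.05. In bulk tissue, fewer cells of a type and less RNA per cell cannot be told apart. Among the 61 genes, 12 were at least 2-fold higher in the dark and 4 at least 2-fold higher in the light, and the median size of the difference was 0.76, or 1.69-fold. The smallest size was 0.42, or 1.34-fold. In 58 of the 61 genes the 4 dark arrays did not overlap the 4 light arrays, which held for 3.97% of all genes. Slc25a25, Nr1d1 and Pfkfb3 were the genes with overlap. Each of the 61 differed in the same direction in both repeats. The 61 were chosen by the test on these same arrays, so the counts for overlap and direction are a description. All 61 encode proteins, and 60 lay above the median level of all genes, with a median level of 8.57 against 6.03 over all genes.

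The number of genes past the threshold depended on single arrays more than their differences did. Without the 2 arrays with liver transcripts 12 genes passed, all of them among the 61: Per1, Per2, Per3, Arrdc2, Nrip1, Cep85l, Wee1, Usp2 and Glul higher in the dark, and Arntl, Relt and Kdr higher in the light. All 61 kept their direction there, with differences between 0.81 and 1.25 times those over all 8 arrays. With the mean of the adipocyte markers as a covariate 21 genes passed, again all among the 61, and differences were 0.80 to 1.18 times as large. Among the genes that did not pass in that fit were Ddit4, Sgk1, Tsc22d3, Arrdc3, Depp1, Glul, Prodh, Slc7a2, Slc38a4, Pfkfb3, Npas2 and Nr1d2. The count fell to 30 without ZT0 repeat 1, 35 without ZT3 repeat 1, 26 without ZT12 repeat 1, 36 without ZT15 repeat 1, 39 without ZT12 repeat 2 and 31 without ZT15 repeat 2, and 25 of the 61 passed whichever of the 8 arrays was left out.

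Among the 61 genes past the threshold, clock genes held the largest differences in both directions. Of 20 measured core clock genes 8 passed the test (40%), against 0.262% of all genes. This and the other gene lists were chosen with earlier results of these data known. Per1, Per2, Per3 and Nr1d2 were higher in the dark, and Arntl, Npas2, Nr1d1 and Clock were higher in the light. The repressor gene Per1 stood at 7.43, 7.58, 7.30 and 7.55 in the light arrays and at 9.65, 9.67, 9.57 and 9.58 in the dark arrays. The levels were nearly flat within each window and far apart between them. The difference was 2.15 ± 0.119 (SE, n = 4 and 4), or 4.45-fold (limma adjusted p = 6.68e-06), the largest rise among the genes past the threshold. Per2 stood at 6.20, 6.19, 5.85 and 6.32 in the light and at 7.68, 7.51, 7.65 and 7.78 in the dark. It had the same shape as Per1, with a difference of 1.52 ± 0.110, or 2.86-fold (limma adjusted p = 7.52e-05). Per3 was at 6.34, 6.60, 6.90 and 7.08 in the light and at 8.08, 8.22, 7.67 and 7.94 in the dark. Here the ZT3 arrays were above those of ZT0 and the ZT15 arrays below those of ZT12, without overlap of the windows, and the difference was 1.25 ± 0.0947, or 2.38-fold (limma adjusted p = 9.79e-05).

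Of the activating arm, Arntl, Npas2 and Clock were higher in early light. Arntl was at 9.71, 9.53, 9.62 and 9.38 in the light, and at 7.26 and 7.03 at ZT12 and 8.20 and 8.21 at ZT15. All dark arrays were below all light arrays, and the ZT12 arrays were the lowest, with a difference of -1.88 ± 0.0934, or 3.68-fold lower in the dark (limma adjusted p = 4.08e-06). Npas2 was at 6.78, 6.99, 6.87 and 6.59 in the light and at 5.38, 5.18, 5.26 and 5.46 in the dark. It was lower by 2.81-fold, at -1.49 ± 0.237 (limma adjusted p = 0.0246). The SE draws on the repeats of all 8 young times, as for the other genes of this comparison. Within the windows the SD of Npas2 was 0.17 in the light and 0.12 in the dark, while its ZT9 repeats were at 5.43 and 4.04. Npas2 was not among the 25 genes that passed whichever of the 8 arrays was left out. Clock itself was at 10.39, 10.06, 10.28 and 10.21 in the light and 9.44, 9.31, 9.65 and 9.50 in the dark. Its difference of -0.76 ± 0.0980 (limma adjusted p = 0.00579) was the smallest among Arntl, Npas2 and Clock. Arntl2, also in the core clock list, differed by -0.03 (limma adjusted p = 0.974), and its windows overlapped.

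The REV-ERB genes went opposite ways. Nr1d1 was at 10.80 and 10.47 at ZT0, 11.69 and 11.56 at ZT3, 10.41 and 10.72 at ZT12 and 9.50 and 9.36 at ZT15. ZT0 and ZT12 overlapped, while ZT3 lay far above ZT15, and the mean difference of -1.13 ± 0.128 (limma adjusted p = 0.00233) joined one of -0.07 between ZT12 and ZT0 with one of -2.19 between ZT15 and ZT3. Nr1d2 was at 10.002, 9.94, 9.97 and 10.33 in the light and at 10.60, 10.71, 10.47 and 10.61 in the dark, with a difference of 0.54 ± 0.0924 (limma adjusted p = 0.0388). The other core clock genes did not pass. Among them Ciart differed by 0.55 (limma adjusted p = 0.274), Cry2 by 0.50 (limma adjusted p = 0.198), Cry1 by -0.15 (limma adjusted p = 0.838), Bhlhe40 by 0.22 (limma adjusted p = 0.517) and Rora by 0.11 (limma adjusted p = 0.877).

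**Figure D1:**
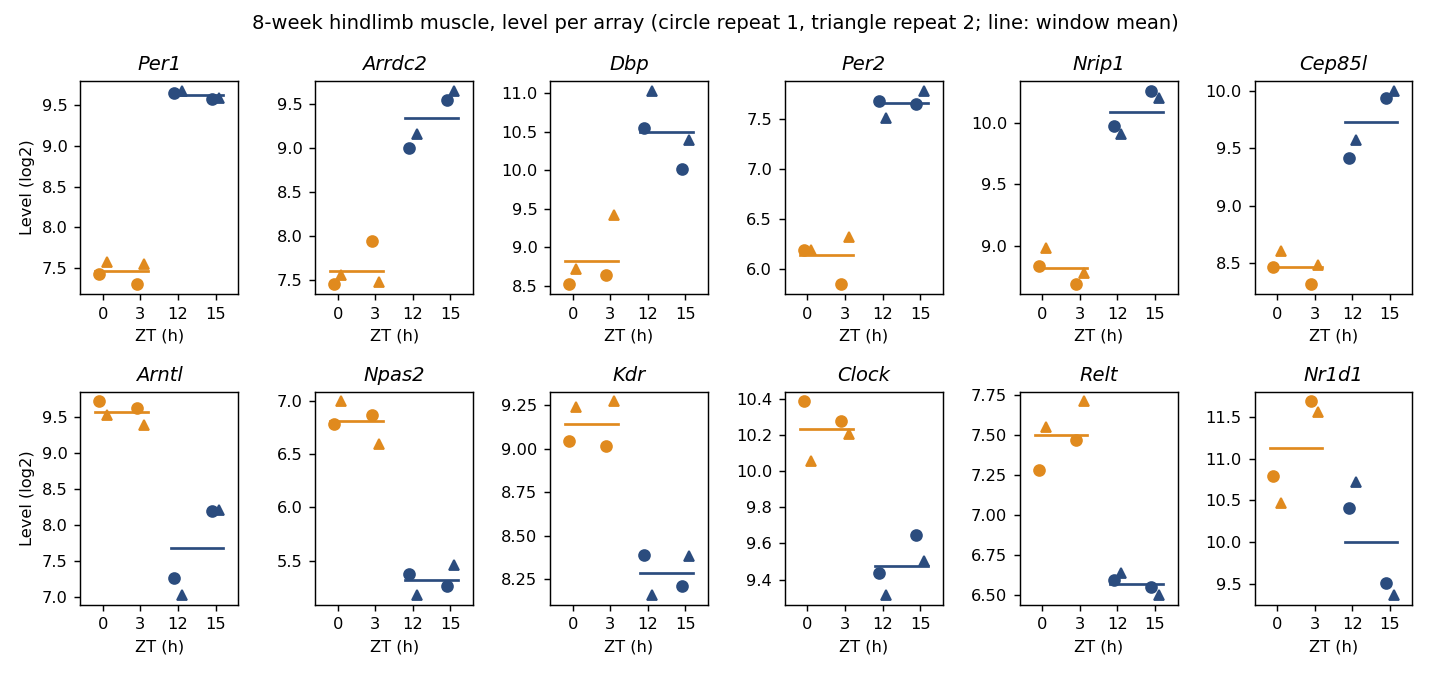
Level (log2) of 12 genes in the 8 compared arrays, by ZT in hours. Circles are repeat 1, triangles repeat 2, orange early light, blue early dark, and lines the mean of a window. In 11 of the genes the windows do not overlap, from Per1 (7.30 to 7.58 against 9.57 to 9.67) to Relt (7.28 to 7.71 against 6.50 to 6.64), whereas Nr1d1 overlaps at ZT0 and ZT12.

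To show the kind of DNA that clock proteins read, the promoters of 3 of these genes are given from RefSeq (assembly GRCm38.p6), each from 250 bases before to 50 after a gene start, 5′ to 3′ on the gene's strand. They are Per1 at chr11:69098699-69098998 (plus strand), Per3 at chr4:151044616-151044915 (minus strand) and Arntl at chr7:113207261-113207560 (plus strand). Capitals mark the E-box CACGTG, bound by BMAL1 with CLOCK, in Per1, the D-box TTANGTAA, bound by DBP and its relatives, in Per3, and the ROR element, read by ROR and REV-ERB proteins and written as ANNTN followed directly by GGTCA, in Arntl.
Per1: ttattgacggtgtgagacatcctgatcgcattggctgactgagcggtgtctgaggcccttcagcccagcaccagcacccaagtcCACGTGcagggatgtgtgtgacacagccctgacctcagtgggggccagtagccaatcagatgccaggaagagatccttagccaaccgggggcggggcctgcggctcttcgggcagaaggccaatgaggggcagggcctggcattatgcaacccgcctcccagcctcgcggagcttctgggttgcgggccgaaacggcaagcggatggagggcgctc
Per3: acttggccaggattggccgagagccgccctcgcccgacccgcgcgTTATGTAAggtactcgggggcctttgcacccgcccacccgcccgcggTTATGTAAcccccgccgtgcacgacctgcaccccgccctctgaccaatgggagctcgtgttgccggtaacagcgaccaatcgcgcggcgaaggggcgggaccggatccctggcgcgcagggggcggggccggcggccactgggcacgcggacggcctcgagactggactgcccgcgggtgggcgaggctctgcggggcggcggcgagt
Arntl: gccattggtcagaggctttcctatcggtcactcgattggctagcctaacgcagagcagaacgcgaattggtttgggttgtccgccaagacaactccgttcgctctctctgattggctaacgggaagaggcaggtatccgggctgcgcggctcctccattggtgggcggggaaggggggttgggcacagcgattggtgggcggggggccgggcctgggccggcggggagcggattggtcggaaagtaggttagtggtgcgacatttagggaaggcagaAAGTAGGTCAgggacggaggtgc
The matches began at position -166 in Per1, at -205 and -158 in Per3 and at 27 in Arntl, counted from the gene start. Motifs were sought on both strands in the promoters of 17519 genes, among them 35 of the 39 genes higher in the dark and 16 of the 22 higher in the light, and a gene with several promoters counted where any of them held the motif. The E-box was in 9.19% of all these genes, in 4 of the 35 (Per1, Sgk1, Acvr1b and Tle4) and in 4 of the 16 (Pfkfb3, Wsb1, Cpeb1 and Fgf6). The D-box was in 2.45% of all, in 3 of the 35 (Per3, Slc25a25 and Sult1a1) and in 0 of the 16. The ROR element was in 2.53% of all, in 0 of the 35 and in 2 of the 16 (Arntl and Slc38a4). The glucocorticoid response element, written as GNACA and TGTNC with 3 bases between, in 0.537% of all, was in Sgk1 and Map3k6 among the 35 and in 0 of the 16, and the cyclic AMP element TGACGTCA, in 2.58% of all, in Slc25a25 and Wsb1. A match describes the letters of these windows only.

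Of 17 measured genes of clock output, 3 passed the test (0.262% of all genes did), and all 3 were higher in the dark. Dbp, a transcription factor gene driven by E-boxes, was at 8.51, 8.72, 8.63 and 9.42 in the light and at 10.55, 11.03, 10.01 and 10.40 in the dark. The second ZT3 array stood above the other light arrays and below every dark array, and the difference was 1.68 ± 0.193, or 3.196-fold (limma adjusted p = 0.00267). Wee1, a kinase gene that holds back entry into mitosis, was at 6.15, 5.93, 5.22 and 5.75 in the light and at 6.84, 6.84, 7.06 and 6.76 in the dark. It was uneven in the light and even in the dark, and differed by 1.11 ± 0.122 (limma adjusted p = 0.00226). Usp2, a deubiquitinase gene, was at 9.87 to 10.1 in the light and 10.78 to 10.95 in the dark, a difference of 0.84 ± 0.0799 (limma adjusted p = 0.00073). In the same family as Dbp, Hlf differed by 0.50 (limma adjusted p = 0.216) and Tef by 0.36 (limma adjusted p = 0.346), neither past the test. Coq10b, a gene of coenzyme Q function, differed by 0.81 without passing (limma adjusted p = 0.0761), and Nfil3, which competes with Dbp for D-boxes, by -0.42 (limma adjusted p = 0.142).

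Genes of insulin and FOXO signalling that passed were 4 of 25 measured, against 0.262% of all genes. All 4 were higher in the dark: Arrdc2, Ddit4, Arrdc3 and Depp1. Arrdc2, an arrestin-domain gene, stood at 7.44, 7.55, 7.94 and 7.47 in the light and at 9.00, 9.16, 9.55 and 9.65 in the dark. The windows were far apart, ZT15 was the higher of the dark times, and the difference was 1.74 ± 0.143, or 3.33-fold (limma adjusted p = 0.000207). Ddit4, an inhibitor of the growth kinase mTORC1, was at 5.75, 6.35, 6.41 and 6.23 in the light and at 7.44, 7.30, 7.24 and 7.90 in the dark. In the light the spread was wider than in Arrdc2, with the ZT0 array of repeat 1 lowest. The difference was 1.28 ± 0.175 (limma adjusted p = 0.00904), and 1.18 without the liver arrays. Arrdc3, of the same family as Arrdc2, rose by 0.92 ± 0.143 (limma adjusted p = 0.0202), and Depp1, a FOXO target, by 0.79 ± 0.109 (limma adjusted p = 0.00994). The median of the list was 0.03, close to that of all genes at -0.0036.

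In the list of glucocorticoid targets 4 of 16 measured genes passed, against 0.262% of all genes. All 4 were higher in the dark: Per1 and Ddit4, which other lists hold as well, Sgk1 and Tsc22d3. The dark mean was above the light mean in 15 of the 16 (48.9% of all genes) and the dark arrays were all above the light arrays in 8, against 1.85% of all genes. The list's median difference was 0.44, and its mean level was 8.15 to 8.34 in the light arrays, 8.60 and 8.61 at ZT12 and 8.90 and 9.12 at ZT15. Sgk1, a kinase gene, differed by 0.70 ± 0.120 (limma adjusted p = 0.0388). It too was not among the 25 genes that passed whichever of the 8 arrays was left out. Tsc22d3, which encodes the leucine zipper protein GILZ, was at 9.17, 9.35, 9.15 and 9.09 in the light and at 9.37, 9.72, 9.93 and 10.34 in the dark. The ZT12 array of repeat 1 barely exceeded the highest light array, and the difference was 0.65 ± 0.116 (limma adjusted p = 0.0467).

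Nuclear and metabolic regulators stood beside these lists. Nrip1, which encodes the corepressor RIP140 that limits oxidative genes in muscle, was at 8.84, 8.98, 8.68 and 8.78 in the light and at 9.97, 9.91, 10.26 and 10.21 in the dark. The windows were wide apart, with a difference of 1.27 ± 0.0864, or 2.41-fold (limma adjusted p = 4.88e-05). Cep85l, which encodes a centrosomal protein, stood at 8.47, 8.61, 8.32 and 8.48 in the light and at 9.42, 9.57, 9.94 and 10.002 in the dark. ZT15 exceeded ZT12, and the difference was 1.26 ± 0.107, or 2.40-fold (limma adjusted p = 0.000238). Mid1ip1, which acts on acetyl-CoA carboxylase in fatty acid synthesis, was at 7.47 to 7.99 in the light and 8.77 to 8.84 in the dark. It rose by 1.11 ± 0.124 (limma adjusted p = 0.00226), and Dusp7, a phosphatase gene of the ERK pathway, by 0.88 ± 0.0982 (limma adjusted p = 0.00226). Slc25a30, a mitochondrial carrier gene, rose by 1.12 ± 0.191 (limma adjusted p = 0.0364) and Fmo2, a flavin monooxygenase gene, by 1.06 ± 0.147 (limma adjusted p = 0.00994). The last pair was less steady, since the difference of Slc25a30 was 0.91 and that of Fmo2 0.85 without the liver arrays.

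Genes that carry or convert amino acids changed in both directions, 4 of 19 measured against 0.262% of all genes. Glul, glutamine synthetase, was at 10.59, 10.33, 10.37 and 9.83 in the light and at 10.76, 10.67, 11.33 and 11.57 in the dark. The dark arrays were all higher, those of ZT15 by far, and the difference was 0.80 ± 0.129 (limma adjusted p = 0.0260). It was 1.00 without the liver arrays, and Glul is also abundant in liver. Prodh, proline dehydrogenase, rose by 0.73 ± 0.110 (limma adjusted p = 0.0170), and Slc7a2, a carrier of cationic amino acids, by 0.66 ± 0.0932 (limma adjusted p = 0.0100). Slc38a4, a carrier of neutral amino acids, was at 11.37, 11.29, 11.36 and 11.13 in the light and at 10.51, 10.59, 10.85 and 10.45 in the dark. It fell by 0.69 (SE 0.111, limma adjusted p = 0.0256), the opposite direction to Slc7a8, another carrier of neutral amino acids outside the list, which rose by 0.99 ± 0.122 (limma adjusted p = 0.00465).

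Of 25 genes of glucose and glycogen metabolism only Pfkfb3 passed the test. Its enzyme makes fructose 2,6-bisphosphate, an activator of glycolysis. Pfkfb3 was at 9.77 and 9.37 at ZT0, 10.79 and 10.46 at ZT3, 8.90 and 9.39 at ZT12, and 7.86 and 8.43 at ZT15. The ZT3 arrays were the highest and the ZT15 arrays the lowest, while ZT0 and ZT12 overlapped slightly, and the mean difference was -1.45 ± 0.218, or 2.74-fold lower in the dark (limma adjusted p = 0.0170). In the list of muscle regulation 2 of 23 genes passed (0.262% of all genes did), Nrip1 and Mylk4. Mylk4, a myosin light chain kinase gene, was at 11.88 to 12.10 in the light and 12.52 to 12.63 in the dark.

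Among receptors, Kdr, a receptor of VEGF signals on vessel cells, was at 9.04, 9.24, 9.02 and 9.27 in the light and at 8.39, 8.16, 8.21 and 8.38 in the dark. The windows were well apart, and the difference was -0.86 ± 0.104, or 1.81-fold lower in the dark (limma adjusted p = 0.00397). Kdr is an endothelial gene. Of 10 endothelial markers 8 had a lower mean in the dark (51.1% of all genes), and only Kdr passed the test. The median of the list was -0.17, or -0.35 without the liver arrays. The mean of that list was 8.06 to 8.46 in the light and 7.95 to 8.07 in the dark, overlapping by a narrow margin, and its part in the result for Kdr was not tested. Of 15 angiogenic genes Kdr was likewise the only one to pass, and Tek, the angiopoietin receptor, differed by -0.46 (limma adjusted p = 0.255). Relt, of the tumour necrosis factor receptor family, was at 7.28, 7.55, 7.47 and 7.71 in the light and 6.59, 6.64, 6.55 and 6.50 in the dark, with a difference of -0.93 ± 0.103 (limma adjusted p = 0.00226). Sdc4, a heparan sulfate proteoglycan gene listed as a satellite cell marker, fell by 0.62 (SE 0.0866, limma adjusted p = 0.0100). The other 7 satellite cell markers did not pass, with differences from -0.24 to 0.22.

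The remaining genes among the 15 largest falls served several roles. Wsb1, which encodes a SOCS-box protein, was at 7.52, 7.23, 7.32 and 7.36 in the light and 6.12, 6.24, 6.62 and 6.69 in the dark, with a difference of -0.94 ± 0.105 (limma adjusted p = 0.00226). The dark arrays of ZT12 were the lowest. Cpeb1, which encodes an mRNA-binding protein of cytoplasmic polyadenylation, was at 8.85, 8.96, 8.98 and 8.97 in the light and 8.09, 8.31, 8.06 and 8.08 in the dark, and fell by 0.81. Ptpn4, a tyrosine phosphatase gene, was at 8.82 to 9.08 in the light and 8.17 to 8.24 in the dark, and fell by 0.76. Ptpn4 was the more even of these genes within the dark window. Auts2 fell by 0.76, Tnfaip2 by 0.71, the kinase gene Mast4 by 0.68, the zinc finger gene Zfp462 by 0.65 and the kelch gene Klhl30 by 0.65. Limma adjusted p-values of these 7 genes ran from 0.00216 (Ptpn4) to 0.0343 (Tnfaip2).

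A further 20 genes past the threshold lay outside the rule for named genes and are listed after their values were seen. Higher in the dark were Cdc14a (0.78), Fzd4 (0.77), Slc43a3 (0.75), Map3k6 (0.74), Sult1a1 (0.68), Acvr1b (0.68), Adamtsl4 (0.66), Tsc22d3 (0.65) and Zc3h6 (0.64). The others in that direction, all with differences from 0.42 to 0.60, were Klhl33, Snrk, Tle4, Tfcp2l1, Stk35 and Hivep2. Fzd4 is a Wnt receptor gene and Acvr1b a type I activin receptor gene. Higher in the light were Arhgap20 (-0.61), Zhx2 (-0.60), Fgf6 (-0.57), Slc9a2 (-0.57) and Rnf122 (-0.54). Fgf6 encodes a fibroblast growth factor of muscle, at 6.999, 7.21, 7.25 and 7.02 in the light and 6.72, 6.42, 6.52 and 6.53 in the dark.

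No gene passed in 11 of the 20 pathway lists: heat and cold response (14 measured), fatty acid and triglyceride metabolism (26), sterols (12), oxidative phosphorylation (24), atrophy and autophagy (19), ER stress (17), oxidative stress (15), immediate early genes (17), ion channels and calcium (14), denervation and junction (17), and collagen and matrix (23). Their medians lay between -0.15 (sterols) and 0.13 (heat and cold response). Without the liver arrays they lay between -0.27 (collagen and matrix) and 0.06 (oxidative stress). Across these lists, genes at an unadjusted p under 0.05 by limma were most for collagen and matrix, 5 of 23. Oxidative stress had 4 of 15 and immediate early genes 4 of 17. The other lists had 1 to 3, except 0 for sterols and for oxidative phosphorylation. Apart from the lists with 0, each had a higher share than the 6.95% of all genes. Fbxo32, the muscle ubiquitin ligase atrogin-1, differed by -0.72 with an SE of 0.251 (limma adjusted p = 0.533), and Scd1, a fatty acid desaturase gene that adipocytes express as well, by 0.97 with an SE of 0.461 (limma adjusted p = 0.747). Genes of oxidative phosphorylation were narrow in range, from -0.14 to 0.13. Hepatocyte markers had 0 of 16 past the test and a median of -1.11, or -0.28 without the liver arrays. Both fibre lists had 0 genes past the test, with a median of 0.09 for slow and -0.01 for fast fibres. Without the liver arrays these medians were -0.33 and -0.02. The mean of the slow fibre genes was 8.30 to 9.31 in the light and 8.61 to 8.95 in the dark. The lists of other cells, apart from those named above, also had 0, with medians from -0.26 (Schwann cell and axon) to 0.34 (B and plasma cell). Without the liver arrays their medians ran from -0.32 (tenocyte) to 0.79 (B and plasma cell).

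**Figure D2:**
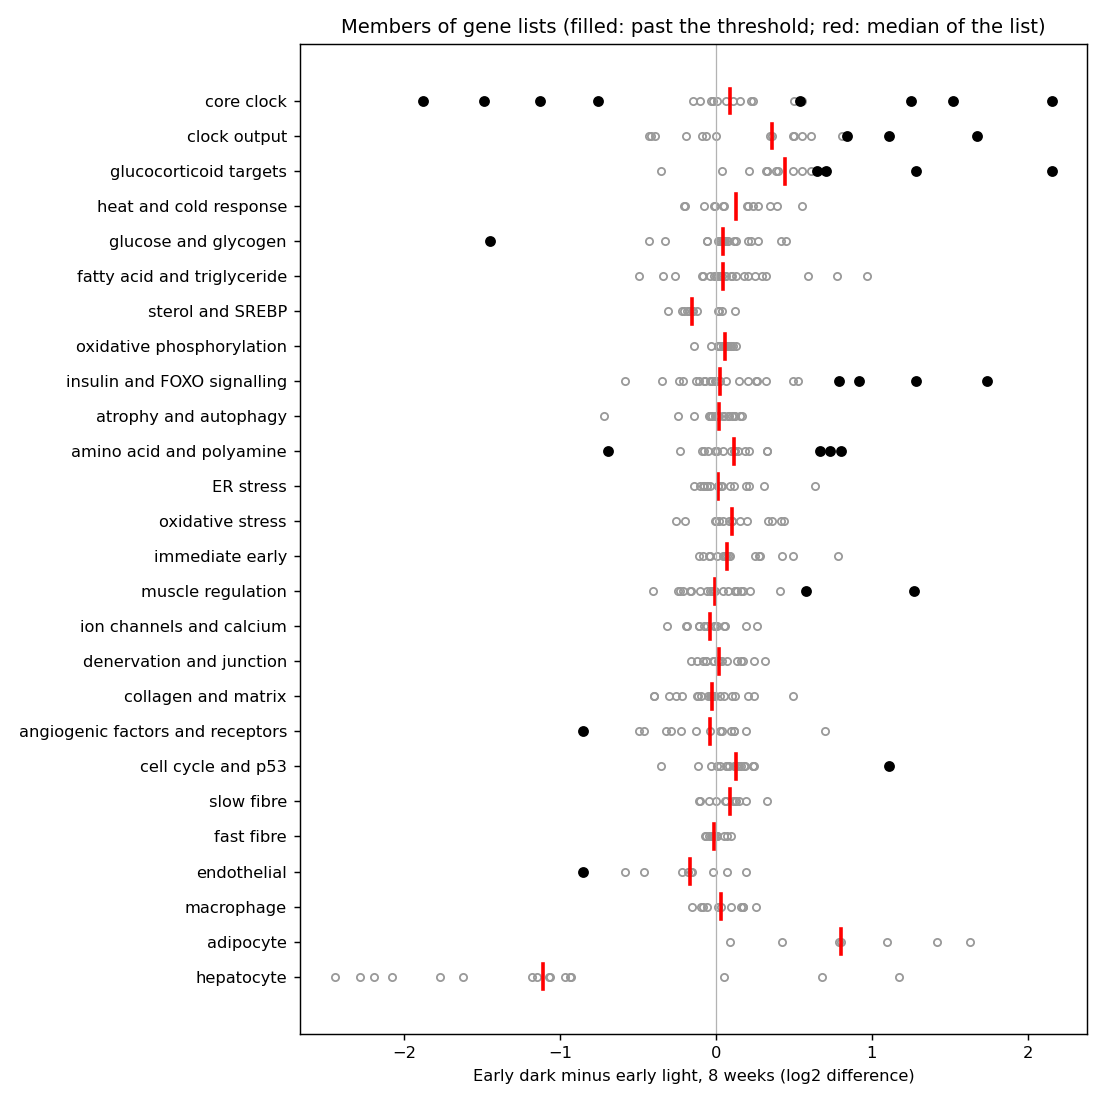
Difference between early dark and early light (log2, x axis) for each measured member of 20 pathway lists and 6 marker lists (rows). Filled points passed the test, open points did not, and red bars are list medians; core clock genes spread from -1.88 to 2.15, and adipocyte markers lie to the right with a median of 0.80 and no filled point.

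The windows were not uniform inside. Between ZT0 and ZT3 no gene passed the test (0%) by limma, with 975 genes at an unadjusted p under 0.05 (4.19%), and 1 gene passed without ZT0 repeat 2. Between ZT12 and ZT15, 4 genes passed (0.0172%), each higher at ZT15: Ppp1r3c, Slc25a25, Hspa1a and Arntl. None of the 4 passed once any 1 of the 4 dark arrays was left out. None passed either in a fit without 4 young arrays with liver transcripts, although all dark arrays stayed, and 2 genes passed with the adipocyte mean as a covariate, 1 of them among the 4. The ZT0 and ZT3 comparison gave 0 genes in both of these fits. Ppp1r3c, which encodes a subunit that brings protein phosphatase 1 to glycogen, was at 10.26 and 10.30 at ZT12 and at 11.76 and 11.81 at ZT15, a rise of 1.499 ± 0.148 (SE, n = 2 and 2, limma adjusted p = 0.00846). Its light arrays, at 11.50, 11.58, 11.38 and 10.98, lay between these dark times, and the mean difference between windows was -0.33 (limma adjusted p = 0.465). The heat shock gene Hspa1a, whose copy Hspa1b is near-identical and can share probes, was at 6.80 and 6.47 at ZT12 and 8.84 and 8.66 at ZT15, a rise of 2.11, again with no difference between the windows past the test (0.20, limma adjusted p = 0.893).

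The pairs of opposite times, ZT0 with ZT12 and ZT3 with ZT15, gave 16 genes (0.0687%) and 34 genes (0.146%), of which 13 and 29 were among the 61. Each pair held 1 light array with liver transcripts, and these counts were made neither without it nor with the adipocyte covariate. In 60 of the 61 genes both pairs had the same sign. The 61 were chosen by the mean of these pairs on the same arrays. The shared signs and the 13 and 29 genes are therefore a description. The exception in sign was Slc25a25, which encodes a mitochondrial carrier of ATP-Mg and phosphate. Slc25a25 was at 7.11 and 7.76 at ZT0, 6.45 and 6.46 at ZT3, 7.23 and 6.85 at ZT12, and 8.76 and 8.69 at ZT15. It was thus lowest at ZT3 and highest at ZT15, differed by -0.40 between ZT12 and ZT0 and by 2.27 between ZT15 and ZT3, and the pairs differed by 2.67 (limma adjusted p = 0.0169). The test between pairs called 4 genes (0.0172%), which also held Ppp1r3c (1.86), Ppp1r10 (1.57) and Nr1d1 (-2.12). The count of this test was 0 or 1 when 1 of the 8 arrays was left out, 0 without the liver arrays and 0 with the adipocyte covariate. Without the liver arrays Slc25a25 still differed by 2.99 between the pairs (limma adjusted p = 0.123).

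**Figure D3:**
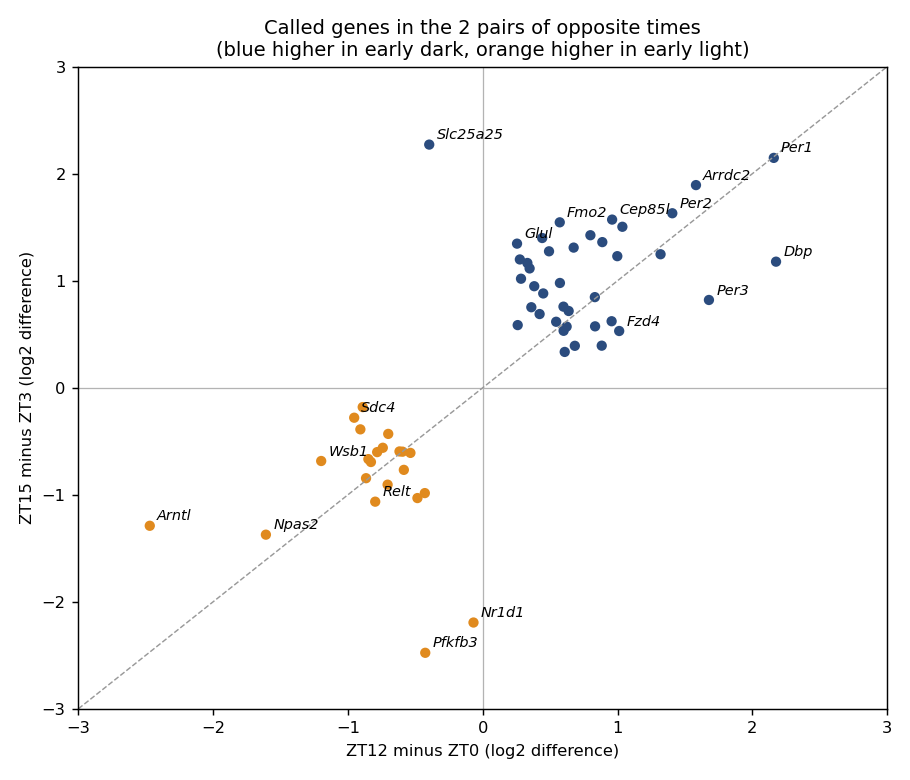
Difference between ZT12 and ZT0 (log2, x axis) and between ZT15 and ZT3 (log2, y axis) for the 61 genes, blue where higher in early dark and orange where higher in early light, with a dashed line of equality. Slc25a25 lies apart at -0.40 and 2.27, Nr1d1 and Pfkfb3 differ mainly at ZT15 and ZT3, and Dbp, Per3 and Arntl differ more between ZT12 and ZT0.

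Over all 8 times of young mice, the genes higher in early dark had their highest mean at ZT15 in 27 cases, at ZT12 in 10 and at ZT9 in 2, the latter being Per3 and Zc3h6. Their lowest mean was at ZT3 in 18, ZT0 in 11, ZT6 in 7 and ZT21 in 3. Genes higher in early light had their highest mean at ZT0 in 8, ZT3 in 6, ZT6 in 4 and ZT21 in 4, and their lowest at ZT12 in 12, ZT15 in 7, ZT9 in 2 and ZT18 in 1. The genes were chosen by the contrast of these windows, so that highs and lows inside the windows are a description. Slc25a25 covered 4.86-fold over the day, Per1 4.71-fold and Arrdc2 4.55-fold.

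**Figure D4:**
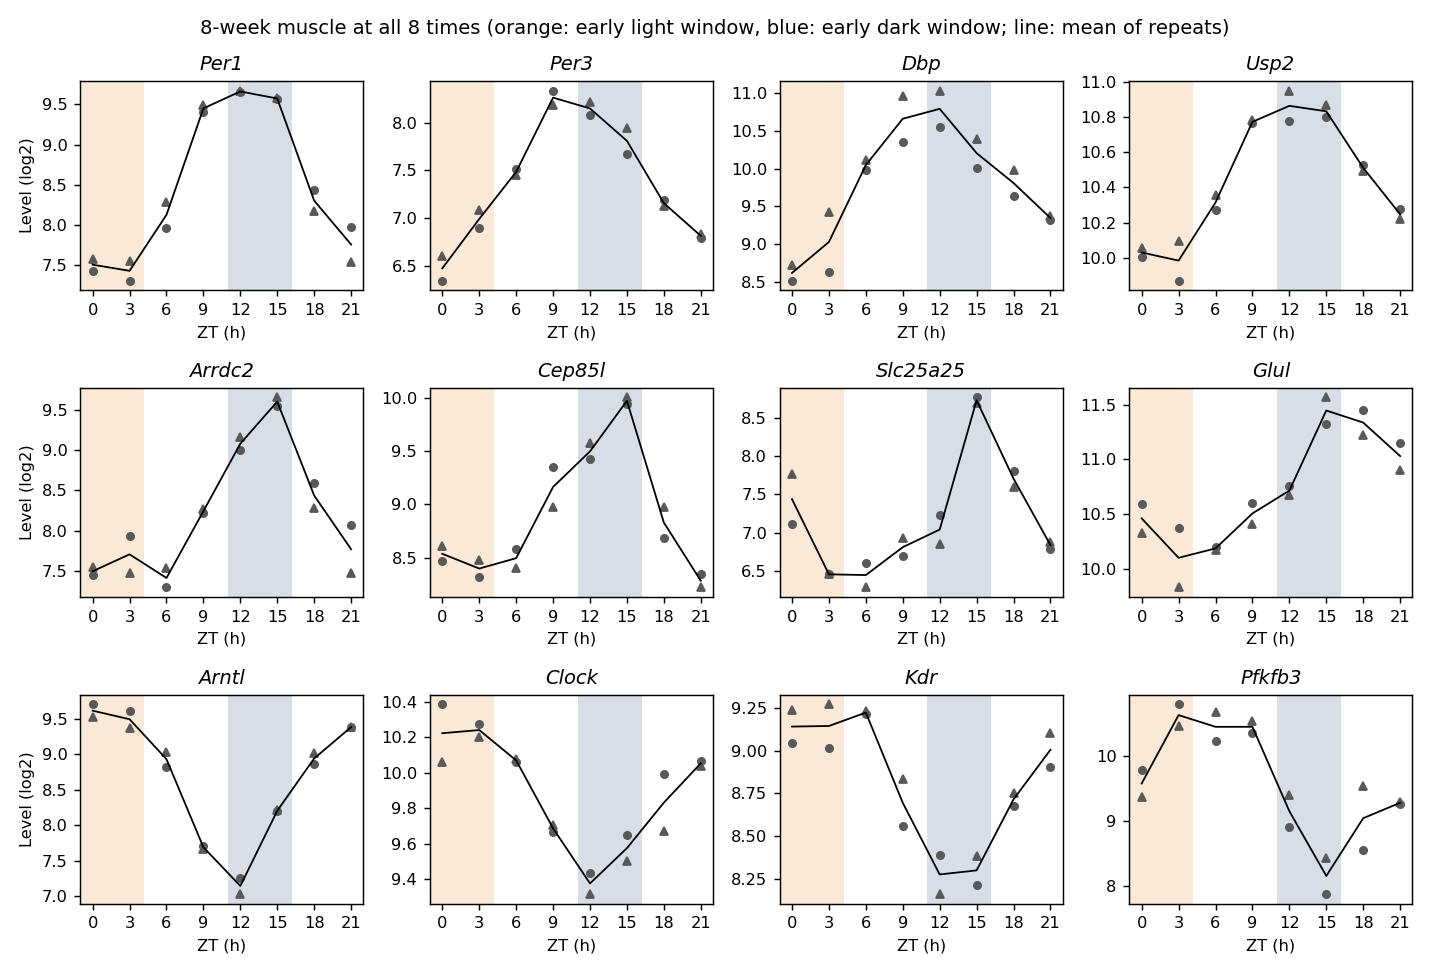
Level (log2) of 12 genes in the 16 young arrays by ZT in hours, circles repeat 1, triangles repeat 2, the line their mean, orange the early light window and blue the early dark window. Per1 is high from ZT9 to ZT15, Slc25a25 is highest at ZT15, Arntl and Clock are lowest at ZT12, and Glul stays high after ZT15.

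The same contrast moved 6 h later, ZT18 and ZT21 against ZT6 and ZT9, used the other 8 young arrays and called 49 genes (0.21%), of which 11 were among the 61. Liver transcripts were present in 3 of these 8 arrays, with a hepatocyte mean of 10.1 and 7.85 in the ZT6 arrays and 9.54 in ZT18 repeat 2. The late count was 11 to 38 when 1 array was left out, and lower by over 1.5 times for each array except ZT6 repeat 1. Without the liver arrays of the fit, ZT6 repeat 2 being kept so that this time had an array, 5 genes passed, 3 of them among the 49, and of the 61 only Nr1d1 did. With the adipocyte mean as a covariate 28 passed. Of the 39 genes higher in early dark, 27 were higher in late dark than in late light as well (48.5% of all genes were), and 3 of them passed (0.107% of all genes), namely Arrdc3, Tsc22d3 and Glul. Per1, Per3 and Zc3h6 passed in the opposite direction (0.103%). Per1 was 2.15 higher in early dark and 0.76 lower in late dark, a contrast of 2.91 between the windows (limma adjusted p = 1.11e-05), while Glul was 0.80 and 0.84 higher, with a contrast of -0.04 (limma adjusted p = 0.987). Of the 22 genes higher in early light, 10 were lower in late dark than in late light (51.5% of all genes were). Nr1d1 and Pfkfb3 passed in that direction, and Arntl, Wsb1 and Rnf122 in the opposite one. The test of early against late called 49 genes (0.21%), 23 of them among the 61, and the number fell to between 20 and 38 when 1 of the 16 arrays was left out, by over 1.5 times for each array except ZT21 repeat 1 and ZT3 repeat 2. Without the liver arrays, ZT6 repeat 2 again kept, it called 7 genes, 6 of them among the 49, and those among the 61 were Per1 (2.83), Arntl (-2.54), Per3 (1.99) and Zc3h6 (1.39). In that fit 26 of the 39 genes were higher and 11 of the 22 lower in late dark. With the adipocyte covariate the test called 33 genes and with the hepatocyte mean 30. Over all arrays Arntl (-2.73), Dbp (2.45), Per3 (2.14) and Npas2 (-2.05) followed Per1 in size among the 23. The test of early against late contains the early contrast that chose the 61, which favours these genes. Their number and sizes in that test are therefore a description.

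For age, all 32 arrays were fitted together, and in that fit the windows at 8 weeks called 106 genes. In mice of 80 weeks, on 8 arrays of other animals, the same windows called 34 genes (0.146%) in that fit. Of these, 28 were among the 61 from the fit of the 16 young arrays. The count was 16 to 70 when 1 of the 8 aged arrays was left out, namely 19 without ZT0 repeat 1, 16 without ZT3 repeat 1, 21 without ZT12 repeat 1, 17 without ZT12 repeat 2 and 70 without ZT15 repeat 1, and within 1.5 times of 34 for the other 3. All 39 genes higher in early dark at 8 weeks had a higher dark mean at 80 weeks (50% of all genes did), and the 22 genes higher in early light had a lower one (50%). The aged arrays of the windows did not overlap in 28 of the 39 (2.14% of all genes) and in 14 of the 22 (1.71%). Aged adipocyte markers had a median difference of -0.12 and aged hepatocyte markers one of 0.30, both opposite in sign to those at 8 weeks, and none of the 8 aged arrays was among the 6 with liver transcripts. Per1 was at 7.81, 7.69, 7.80 and 7.69 in the aged light arrays and at 9.66, 9.78, 9.09 and 8.54 in the dark arrays, with a difference of 1.52 ± 0.162 (limma adjusted p = 5.45e-05). The aged light arrays were all above the young light arrays, and the aged ZT15 arrays were below those of young mice. Arntl differed by -1.31 ± 0.0999 at 80 weeks (limma adjusted p = 4.62e-07), Arrdc2 by 1.34 ± 0.162 (limma adjusted p = 0.000200) and Dbp by 1.41.

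The size of the difference was smaller at 80 weeks in 59 of the 61 genes, and the exceptions were Nr1d1 and Fmo2. Medians were 0.78 at 8 weeks and 0.62 at 80 weeks for the genes higher in the dark, and -0.73 and -0.49 for those higher in the light. The genes were chosen by their young values, which favours larger young differences. No gene passed the test of a difference between ages (0%) by limma, with 958 genes at an unadjusted p under 0.05 (4.12%), 15 of them among the 61. Without aged ZT15 repeat 1 it called 9 genes, and without aged ZT3 repeat 2 it called 1. Ddit4 differed by 1.28 at 8 weeks and 0.42 at 80 weeks, a difference between ages of -0.86 (limma unadjusted p = 0.00473, adjusted p = 1.00), and Auts2 by -0.76 and -0.19. Kdr differed by -0.34 at 80 weeks, where its arrays overlapped.

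**Figure D5:**
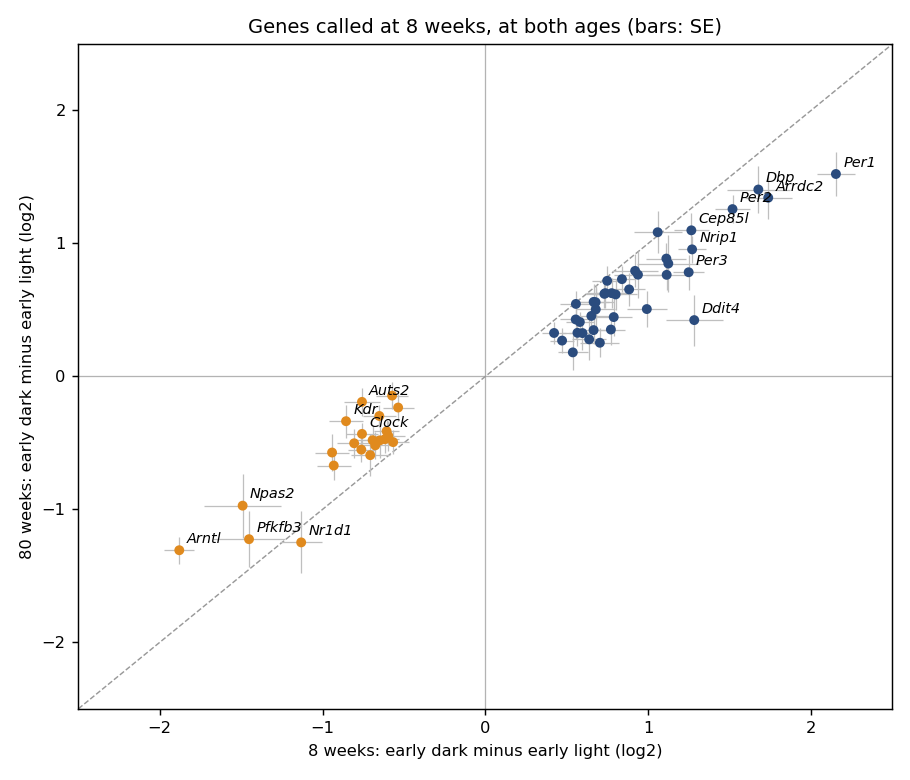
Difference between early dark and early light (log2) at 8 weeks (x axis) and at 80 weeks (y axis) for the 61 genes called at 8 weeks, with SE bars and a dashed line of equality. Every gene lies on the same side of 0 at both ages, and 59 of the 61 lie nearer to 0 at 80 weeks, Ddit4 (1.28 and 0.42) among the farthest from the line.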

How the data were processed

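RNA was measured on 1-colour arrays, each holding a pool of RNA of 3 mice. The deposited values are log2 levels of 24479 probe sets, made by the authors with R 3.2.2, affy 1.44.1 and the robust multi-array average (RMA), as stated in the submitters' processing notes. The method removes background, scales arrays to each other and shrinks differences of dim genes. Neither build nor probe set definitions are given in the sources used here. Of these, 23281 probe sets carried 1 gene symbol, 0 several and 1198 none, and 23156 identifiers matched the RefSeq table of GRCm38.p6. For each symbol the probe set of highest mean was kept, giving 23279 genes with no filter on level. No arrays were duplicates, and the number of arrays limits the precision.

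From these values limma 3.58.1 in R 4.3.3 fitted the 16 young arrays in 8 groups (residual df 8), and the 32 arrays in 16 groups for age, with Benjamini-Hochberg adjustment over all genes and a threshold of 0.05. Repeats are separate pools, and the labels do not say what the repeat number marks. In simulated data of this comparison with 23279 genes, of which 200 were changed, 34.5% were recovered at a log2 change of 0.5, 88.5% at 1 and 97% at 1.5. The comparison, the gene lists and the naming rule were chosen with earlier results of these data known. The rule names all genes of both clock lists, the 15 largest rises and 15 largest falls past the threshold without overlap, up to 4 genes per other list and the 3 leading genes of each other test. Alternatives covered the arrays in the fit, scaling, filter, variance model, block, left-out arrays and 2 covariates.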

Additional observations from a re-analysis of the deposited data

Results flagged for a closer look

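In groups of 4 arrays, 1 array stood apart from the other 3 by Dixon's criterion in 9 of 242 groups examined (3.72%), where chance gives about 5%. The levels were 7.10 for Noct and 5.35 for Rorb at ZT0 repeat 2, 10.3 for Nr1d2 at ZT3 repeat 2, and 5.71 for Lonrf3 at ZT3 repeat 1. In the dark they were 7.13 for Hlf at ZT15 repeat 1, 7.57 for Ppargc1b, 7.79 for Slc9a2 and 8.31 for Cpeb1 at ZT12 repeat 2, and 10.3 for the mean of the oxidative phosphorylation list at ZT12 repeat 1.

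Among genes of the clock lists or past the threshold, 28 differed between the early and the late comparison, against 49 of all 23279 genes (0.21%). The genes examined were the 20 measured core clock genes, the 17 of clock output and the 61 past the threshold, and these sets overlap. The test was limma's test of the difference itself over all 16 young arrays. It contains the early contrast that chose the 61, which favours these genes, so the count of 28 is a description. Without the liver arrays, ZT6 repeat 2 kept, that test called 7 genes in all. Among genes of the clock lists, early minus late was 2.91 in Per1, 2.45 in Dbp, 2.14 in Per3, 1.77 in Ciart, 1.54 in Coq10b, 1.30 in Per2, 1.06 in Nr1d1, 1.00 in Usp2, 0.98 in Nr1d2, 0.80 in Bhlhe41 and 0.70 in Bhlhe40. In the opposite direction it was -2.73 in Arntl, -2.05 in Npas2, -1.57 in Nfil3 and -0.82 in Clock. Outside these lists it was 1.54 in Cep85l, 1.46 in Arrdc2, 1.442 in Zc3h6, 1.07 in Nrip1, 1.05 in Fzd4, 0.89 in Depp1 and 0.80 in Klhl33. It was -1.66 in Wsb1, -1.18 in Rnf122, -1.04 in Sdc4, -0.90 in Klhl30, -0.82 in Zhx2 and -0.76 in Arhgap20. Between the pairs of opposite times, the genes flagged among those of the clock lists or past the threshold were Slc25a25 (2.67) and Nr1d1 (-2.12).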

How the results depend on the processing

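The count of 61 genes became 106 with all 32 arrays in the fit, 139 among genes above the median level and 121 with a variance trend and robust fit. It was 23 with the 8 compared arrays in 4 groups, 33 with them in 2 groups, 34 with ZT3 and ZT15 alone and 16 with ZT0 and ZT12 alone. Without all arrays with liver transcripts it was 10, and, by alternatives chosen after seeing the data, 12 without the 2 compared ones, 33 with the hepatocyte mean and 21 with the adipocyte mean as a covariate. Added quantile normalization gave 67 genes (41 higher), median centring 56 (33 higher), array weights 57 and all probe sets 63. Leaving out 1 array gave 26 to 48 genes. Leaving out a whole repeat left 1 array at each time, so those fits used only the compared arrays, in 2 groups. They gave 0 to 1 genes, against 33 with all 8 compared arrays in 2 groups. Among genes above the median level, ZT15 against ZT12 gave 16 genes, the test between pairs 11, early against late 140, the late comparison 108 and the aged one 54. Also chosen after seeing the data were fits of the other young comparisons without the liver arrays, ZT6 repeat 2 kept, which gave 0 genes for ZT15 against ZT12, 0 for the pairs, 7 for early against late and 5 for the late comparison. The hepatocyte covariate gave 4, 2, 30 and 51 genes there, and the adipocyte covariate 2, 0, 33 and 28. With arrays left out, ZT3 against ZT0 gave 0 to 1 genes, ZT15 against ZT12 0 to 0, the pairs 0 to 1, early against late 20 to 38, the late comparison 11 to 38, the aged one 16 to 70 and the age test 0 to 9. The direction of the 61 genes between early dark and early light was kept in each setting tried for that comparison except by Slc25a25, which was at -0.40 with ZT0 and ZT12 alone. With repeat number as a block 70 genes passed, 57 of them among the 61, ZT15 against ZT12 gave 5, the pairs 3, early against late 60, the late comparison 60, the aged one 39 and the age test 0. Deviations of arrays that share a number correlated by -0.23 to 0.31 (median 0.06) over 28 pairs of groups, and pairing by number was not established. Of the 61 genes 60 were above the median level, and whether low signal kept dim genes from passing was not tested.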
